A study of Caenorhabditis elegans with 2 samples.

Results

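The cytochrome P450, UDP-glucuronosyltransferase and glutathione transferase genes of the nematode Caenorhabditis elegans were examined for promoter occupancy by the nuclear hormone receptor NHR-90. The set held every protein-coding gene of the Ensembl WBcel235 annotation whose symbol is cyp-, ugt-, gst-, gsto- or gstk- followed by a number, together with daf-9, which also encodes a P450. These were 191 of 19973 protein-coding genes, made up of 75 P450 genes, 67 glucuronosyltransferase genes and 49 glutathione transferase genes. They were chosen by symbol, with earlier results of these data known. The promoter window of a gene reaches from 1000 bp before each annotated transcript start to 200 bp after it, and a gene was called when a peak of the authors' final list had its summit in that window.

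The peaks came from chromatin immunoprecipitation and sequencing (ChIP-seq) of 2 biological replicates of whole hermaphrodite L1 larvae, starved after bleaching and collected 6 h after synchronisation. Both replicates are the strain OP483, genotype unc-119(tm4063) III; wgIs483, a transgenic line that stably makes NHR-90 with GFP and FLAG at its C-terminal end, and sonicated chromatin was pulled down through GFP with an antibody. All animals carry the transgene beside their own nhr-90 gene and come from this 1 line, and whole animals mix the cells of all tissues. A control library that entered the authors' peak calling is not analysed here, and there is 1 group of samples, so no test over samples was possible and counts are given beside the same count over all protein-coding genes.

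P450 enzymes are haem proteins that oxidise foreign compounds, steroids and fatty acids, commonly the opening (phase I) step of detoxification. UDP-glucuronosyltransferases add a sugar to such products and glutathione transferases add glutathione, both phase II steps that make compounds easier to excrete. In C. elegans many of these genes are active in the intestine, and they arose by repeated duplication, so that relatives often stand side by side on a chromosome.

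DNA at the summits was read from the RefSeq copy of WBcel235, the build named ce11 in the peak lists. Each sequence covers the summit and 50 bases to each side, 101 bases, on the strand of the gene named. Capitals mark the words searched, on either strand: the repeat GAGAGA, the EOR-1 zinc finger protein's site GAGACGCAG, the E-box CACGTG, the nuclear receptor site AGGTCA, the GATA factor site TGATAA, the SKN-1 core GTCAT and the Runx protein core ACCACA. The words AGGTCA and GTCAT can share letters, and the E-box reads the same on both strands. The strongest peaks with no other gene's window at the summit are shown for each family: gst-20 (chrII:13609795-13609895, minus strand), ugt-20 (chrIV:6083795-6083895, minus) and cyp-13A2 (chrII:9787647-9787747, minus).
gst-20: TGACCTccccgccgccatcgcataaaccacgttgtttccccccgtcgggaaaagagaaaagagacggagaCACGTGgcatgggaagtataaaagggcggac
ugt-20: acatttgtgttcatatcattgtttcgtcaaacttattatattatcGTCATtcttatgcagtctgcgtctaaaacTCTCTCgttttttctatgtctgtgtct
cyp-13A2: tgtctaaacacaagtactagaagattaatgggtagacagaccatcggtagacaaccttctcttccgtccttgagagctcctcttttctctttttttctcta

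The next pair has its summit at small RNA genes as well as in a member's window, namely gst-27 (chrII:15166035-15166135, minus strand) beside a small nucleolar RNA gene and cyp-43A1 (chrX:5713605-5713705, plus) within a tRNA gene.
gst-27: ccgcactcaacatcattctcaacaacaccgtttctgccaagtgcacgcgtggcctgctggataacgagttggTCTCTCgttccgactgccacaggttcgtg
cyp-43A1: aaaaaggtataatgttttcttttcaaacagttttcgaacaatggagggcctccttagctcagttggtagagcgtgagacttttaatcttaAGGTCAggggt

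The remaining sequences show neighbours with a peak each, a peak that serves a pair of genes, and summits that hold several of the searched words. They are cyp-34A8 (chrV:3967936-3968036, minus strand), cyp-34A9 (chrV:3970623-3970723, minus), cyp-33C7 (chrV:2250253-2250353, plus, shared with cyp-33C6), ugt-9 (chrV:4895909-4896009, plus, shared with ugt-11), ugt-61 (chrV:4742316-4742416, plus), ugt-64 (chrV:3505866-3505966, minus) and gst-5 (chrII:10950213-10950313, plus).
cyp-34A8: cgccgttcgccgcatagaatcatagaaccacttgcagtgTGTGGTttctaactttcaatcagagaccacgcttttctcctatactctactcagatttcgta
cyp-34A9: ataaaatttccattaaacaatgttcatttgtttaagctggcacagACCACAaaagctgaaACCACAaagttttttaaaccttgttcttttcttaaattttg
cyp-33C7: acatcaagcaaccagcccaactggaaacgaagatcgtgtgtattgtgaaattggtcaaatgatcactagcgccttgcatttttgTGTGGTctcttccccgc
ugt-9: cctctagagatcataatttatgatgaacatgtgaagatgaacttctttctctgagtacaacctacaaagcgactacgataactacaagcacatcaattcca
ugt-61: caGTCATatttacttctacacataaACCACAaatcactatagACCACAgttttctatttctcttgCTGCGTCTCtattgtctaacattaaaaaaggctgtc
ugt-64: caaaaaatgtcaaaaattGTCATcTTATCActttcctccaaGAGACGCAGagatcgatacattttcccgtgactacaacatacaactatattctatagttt
gst-5: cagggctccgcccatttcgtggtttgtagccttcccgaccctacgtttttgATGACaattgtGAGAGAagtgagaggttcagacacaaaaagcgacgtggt

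Detoxification genes were called about as often as other genes, with peaks of modest height. Of the 191 members 26 were called, or 13.6%, against 14.7 percent of all protein-coding genes, and against 18.4 percent of those with a letters-and-number symbol, a group closer to the members in how genes came to be named. The 3 families lay close together: 9 of 75 P450 genes (12%), 10 of 67 glucuronosyltransferase genes (14.9%) and 7 of 49 glutathione transferase genes (14.3%). Genes are not replicates of a condition and some share a peak, so the differences between the families were not tested. The 26 genes were reached by 24 distinct peaks, with ugt-9 and ugt-11 on a common peak and likewise cyp-33C6 and cyp-33C7. Per 100 kb of promoter window the final list held 9.99 summits in members, 9.16 in all coding genes and 11.6 in those with a letters-and-number symbol.

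Most calls came from the lower part of the final list, though not those of the glutathione transferase genes. That list holds 4133 peaks, with the authors' signal running from 69.4 to 1699.5, and equals the 4133 strongest candidates called on the pooled replicates. Peaks at members had signals from 74.1 to 361.6, with a median of 101.5 over 24 peaks, against 130.8 over the 2410 final peaks in any coding promoter window. Only the gst-27 peak was among the strongest 1000. When the list was cut into 2 equal parts by signal, the stronger part held 6 of the 24 member peaks (25%) and 53.8% of the coding peaks. By gene, 3.14% of members and 8.59% of all protein-coding genes were called with the stronger part. By family these were 4 glutathione transferase genes (8.16%), 1 P450 gene (1.33%) and 1 glucuronosyltransferase gene (1.49%). Of the 4 glutathione transferase genes, gst-27, gstk-1 and gst-42 had a summit that was also in the window of a gene outside the 3 families. Only the gst-20 summit was in no other gene's window. Median signals were 129.3 for glutathione transferase peaks, near that of coding peaks, 95.3 for P450 peaks and 99.0 for glucuronosyltransferase peaks. These differences were not tested.

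Among the P450 genes, which number 75 and hold the phase I enzymes, the strongest peak was that of cyp-13A2, a member of a row of cyp-13A genes on chromosome II. Its signal was 158.1 in the final list, 86.4 in replicate 1 and 63.2 in replicate 2, with the summit 68 bp upstream of the 5′ end. A neighbour in the same row, cyp-13A5, had 90.5 in the final list, 37.8 in replicate 1 and 55.5 in replicate 2. The order of these neighbours was the same in both replicates.

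The second P450 peak by signal, at cyp-43A1 on the X chromosome, was unequal between the replicates: 117.1 in the final list, 27.8 in replicate 1 and 89.9 in replicate 2. It ranked 5813 among the candidates of replicate 1 and 1227 among those of replicate 2. Its summit was 867 bp upstream of cyp-43A1 and lay inside the lysine tRNA gene E03E2.t3, 3 bp from the 5′ end of that gene, so the call for cyp-43A1 rests on a position nearer to another gene.

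The P450 gene cyp-37B1 differed from the others in that its summit fell 13 bp inside the transcript, in an untranslated exon. It had a signal of 102.8, with 45.8 in replicate 1 and 54.2 in replicate 2. The peak shared by cyp-33C7 and cyp-33C6 had 100.2, with 47.8 and 42.7 in replicates 1 and 2, and stood 237 bp upstream of cyp-33C7 and 893 bp upstream of cyp-33C6, which are transcribed away from each other. Another cyp-33 gene, cyp-33A1, which stands alone, had 83.0, with 27.9 and 50.1. The replicates were close for cyp-33C7 and apart for cyp-33A1.

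The adjacent genes cyp-34A8 and cyp-34A9 had the lowest P450 signals, each with its own peak. For cyp-34A8 the signal was 79.2 in the final list, 48.3 in replicate 1 and 29.5 in replicate 2. For cyp-34A9 it was 74.1, with 34.5 and 39.0. Replicate 1 placed cyp-34A8 above cyp-34A9 and replicate 2 placed it below, so their order was not stable. Aligned with gaps allowed, their summit windows of 101 bases had 56 identical bases. Their promoters of 300 bases, from 250 bp before to 50 bp after the outermost 5′ end, had 149. The same counts were 42 and 163 for cyp-13A2 and cyp-13A5, and 45 and 157 for ugt-9 and ugt-13. For gst-20 and gst-27, of separate clusters, they were 49 and 132.

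Glucuronosyltransferase genes were called at 14.9%, near the 14.7% of all protein-coding genes. Their 10 calls were nearly all of similar height. The strongest was ugt-20 on chromosome IV, with a signal of 174.7 in the final list, 81.9 in replicate 1 and 93.2 in replicate 2, 245 bp upstream of the 5′ end. All other called genes of the family lay between 78.6 and 106.2. Apart from ugt-20 the highest was ugt-50 on the X chromosome, with 106.2 in the final list, 48.8 in replicate 1 and 55.3 in replicate 2. Replicates gave ugt-20 and ugt-50 in the same order.

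A row of ugt genes on chromosome V supplied 3 calls from 2 peaks. The peak common to ugt-9 and ugt-11 had 105.3, with 60.3 in replicate 1 and 43.7 in replicate 2, and stood 89 bp upstream of ugt-9 but 888 bp upstream of ugt-11. At the far end of the row ugt-13 had 99.6, with 43.9 and 60.6, and its summit lay 88 bp upstream. The replicates ordered these 2 peaks oppositely.

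Away from that row, ugt-62 on chromosome III had 99.0 (46.1 in replicate 1 and 55.1 in replicate 2) and ugt-64 had 91.4 (38.9 and 52.5). The summit of ugt-64 was 220 bp upstream of its nearest 5′ end yet within an intron, since the gene also has a transcript that starts further upstream. For ugt-61 the value was 83.2, with 51.7 in replicate 1 and 26.7 in replicate 2, ranks 2646 and 6286. The weakest were ugt-54 with 79.1 (35.4 and 38.2) and ugt-49 with 78.6 (39.0 and 41.3). Replicates were close for ugt-54 and ugt-49 and apart for ugt-61.

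Glutathione transferase genes held the strongest peaks of the set. The peak called for gst-27 had a signal of 361.6 in the final list, 181.0 in replicate 1 and 182.5 in replicate 2, at rank 364 of the final list. Its summit stood 354 bp upstream of gst-27, 57 bp upstream of the snoRNA gene Y53F4B.48 and within the window of the noncoding RNA gene Y53F4B.58. The peak at gst-20 was in no other gene's window, 21 bp upstream of its 5′ end, with 195.5 in the final list, 97.1 in replicate 1 and 107.1 in replicate 2. Both replicates put gst-27 well above gst-20, and gst-20 above all remaining glutathione transferase genes.

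Transferases of other classes were among the calls. For gstk-1, which encodes a kappa-class enzyme, the signal was 146.2, with 74.6 in replicate 1 and 69.3 in replicate 2, and the summit was also in the window of its neighbour ZK1307.1. The gene gst-42, whose product is a maleylacetoacetate isomerase of tyrosine breakdown, had 129.3, with 56.7 and 77.2. Its summit lay 23 bp upstream of gst-42 and 192 bp upstream of D1053.2. Without summits that also count for a gene outside the 3 families, the glutathione transferase genes called fell from 7 to 4.

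The other 3 were gst-5, gst-33 and gst-7. The first, whose product conjugates the lipid peroxidation product 4-hydroxynonenal, had 111.2, with 62.9 in replicate 1 and 45.1 in replicate 2. For gst-33 the values were 107.3, 56.9 and 46.7 in the same order. The peak at gst-7 had 81.7 in the final list, 66.1 in replicate 1 and 19.9 in replicate 2, with ranks 1975 and 9532, a ratio of 4.83 that was the widest of the 24 member peaks.

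**Figure D1:**
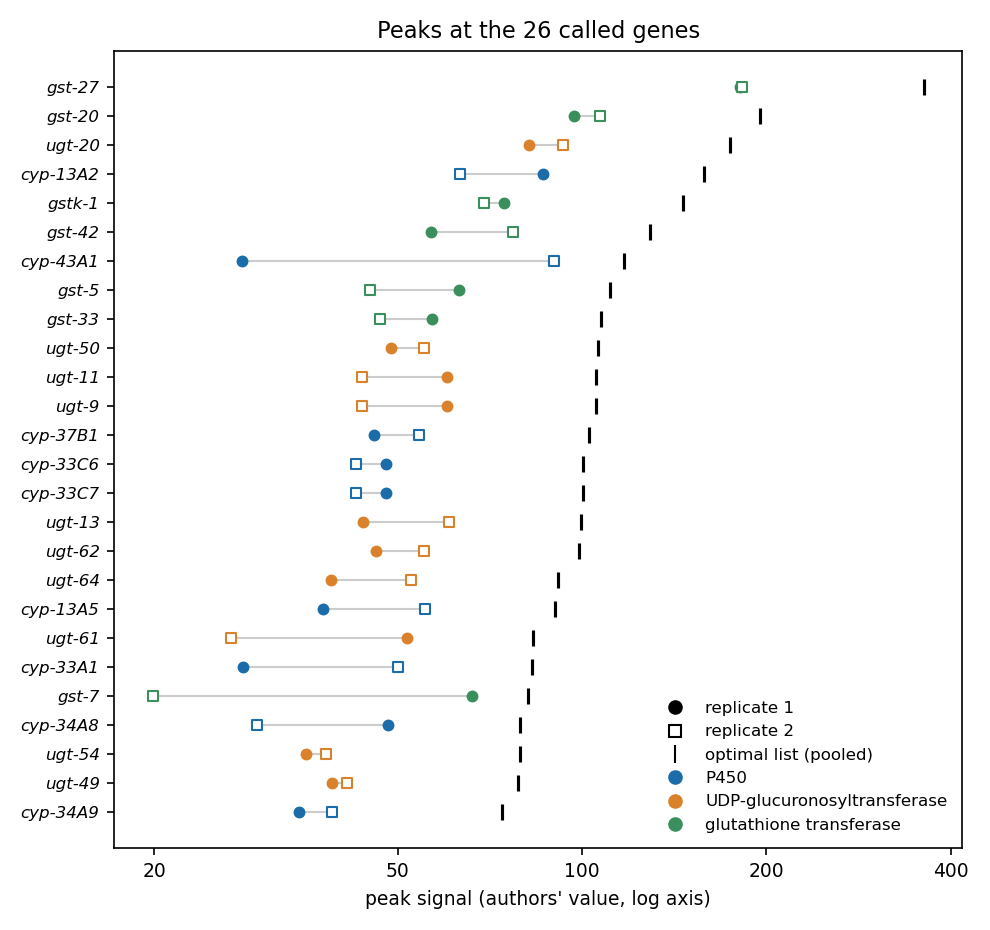
Peak signal (the authors' value, log axis) at the 26 called genes, with replicate 1 as filled circles, replicate 2 as open squares and the final list as vertical bars, coloured by family. The bars run from 74.1 at cyp-34A9 to 361.6 at gst-27, and the replicates are farthest apart at gst-7 and cyp-43A1.

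The replicates found most of these peaks on their own. Taking as many strongest peaks of each replicate as the final list holds, 25 members were called from replicate 1 (13.1%, against 14.7 percent of protein-coding genes) and 28 from replicate 2 (14.7%, against 14.3 percent). Members called from both numbered 19, or 9.95%, against 12.2 percent. By family these 19 were 5 P450 genes, 8 glucuronosyltransferase genes and 6 glutathione transferase genes. Of the 24 member peaks 17 (70.8%) matched a peak within the strongest 4133 of both replicates, and of the 2410 coding peaks 80.5% did. In 14 of the 24 the replicate ranks were within a factor of 1.5, and in 4, at gst-7, cyp-43A1, ugt-61 and cyp-33A1, they were more than a factor of 2 apart. The final list was itself drawn from both replicates, so this is no independent measure of reproducibility.

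With all candidates the shares of members and of other genes lay farther apart than with the whole final list, a difference that was not tested. A summit of the pooled candidates, 30000 peaks that by their description include background, lay in the window of 132 members, or 69.1%, against 45.4 percent of protein-coding genes and 50.9 percent of those with a letters-and-number symbol. Each replicate's own candidates gave a like picture, with 117 members in replicate 1 (61.3%, against 44.4 percent) and 132 in replicate 2 (69.1%, against 42.9 percent). A candidate in both replicates was found at 102 members, 53.4%, against 33.5 percent. Pooled candidates numbered 68.7 per 100 kb of member window and 43.3 per 100 kb of all coding windows, or 48.3 for genes with a letters-and-number symbol. A candidate peak is no call of binding, and the share of background among the candidates is unknown.

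**Figure D2:**
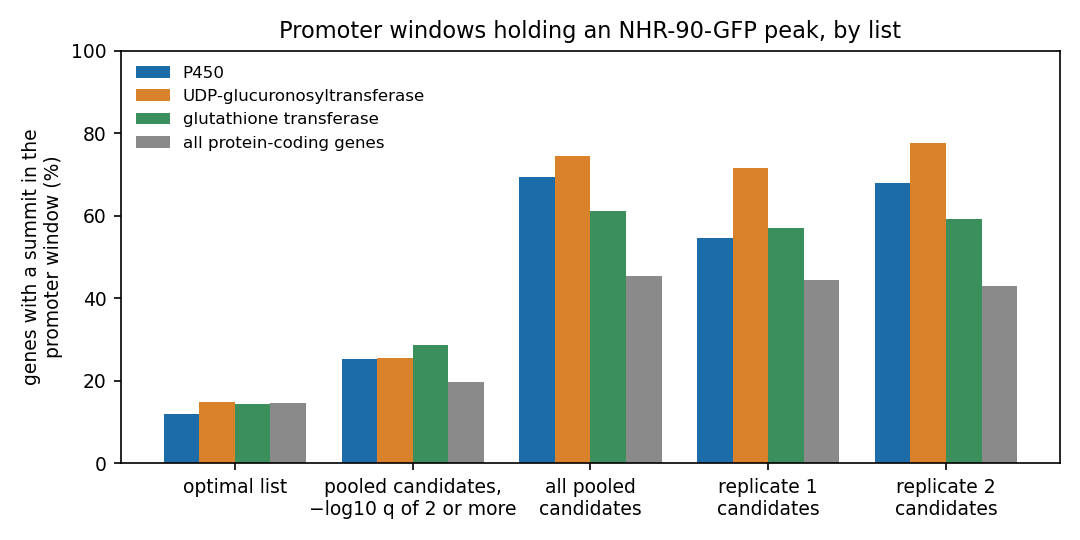
Percentage of genes with a peak summit in the promoter window, by peak list, for each family and for all protein-coding genes (bars). The families lie at 12% to 14.9% in the final (optimal) list beside 14.7 percent of coding genes, and at 61.2% to 74.6% among pooled candidates beside 45.4 percent.

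The members' share began below that of coding genes, drew level near the threshold and was higher from 6000 peaks on. With the stronger of 2 equal parts of the final list 3.14% of members and 8.59% of coding genes were reached. At the 4133 strongest pooled peaks the shares were 13.6% and 14.7%, and at 5000 peaks 16.8% each. The share of members thus rose faster than that of coding genes already within the weaker part of the final list. At 6000 peaks 25.7% of members and 19.2% of coding genes were reached, and at 10000 peaks 40.8% and 26.3%. Between ranks 4134 and 10000 alone 52 members had their strongest candidate (27.2%), against 11.6% of coding genes and 13.5% of those with a letters-and-number symbol. In a middle setting, pooled candidates with a −log10 q-value of 2 or more, there were 50 members (26.2%, against 19.6 percent of protein-coding genes and 24.3% of those with a letters-and-number symbol): 19 P450, 17 glucuronosyltransferase and 14 glutathione transferase genes. Of these 50 members 24 were not among the calls.

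**Figure D3:**
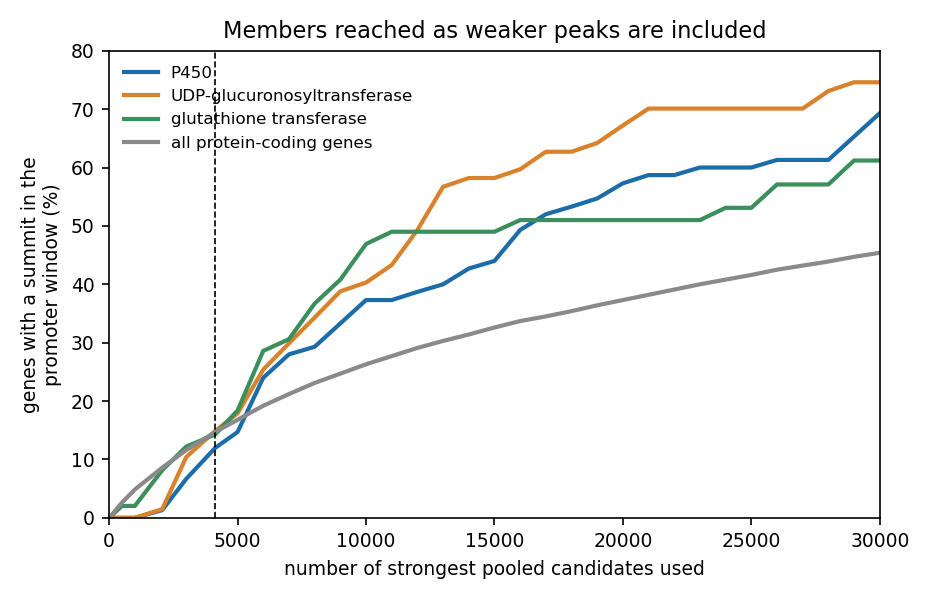
Percentage of genes reached (vertical axis) as more of the strongest pooled candidates are used (horizontal axis, number of peaks), for the 3 families and all protein-coding genes, with a dashed line at 4133 peaks. At the dashed line the P450, glucuronosyltransferase and glutathione transferase curves stand at 12%, 14.9% and 14.3% beside 14.7% for coding genes, and at 10000 peaks at 37.3%, 40.3% and 46.9% beside 26.3%.

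Candidates below the threshold were present at 106 members, with signals from 15.2 to 66.7. Their median was 32.6, against 28.3 for the 6134 coding genes of that kind and 30 for those with a letters-and-number symbol, and 75 of the 106 (70.8%) also had a candidate in both replicates, against 58%. The families ordered as 27.2 for P450 genes, 31.1 for glucuronosyltransferase genes and 39.4 for glutathione transferase genes by median signal. Among the glutathione transferase genes 16 of 49 had their strongest candidate between ranks 4134 and 10000, and another 16 had none in any list (32.7% in each case). No pooled candidate was found at 38.8% of this family, against 54.6% of all protein-coding genes.

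Just outside the calls were several genes studied for their own sake. The highest was cyp-33E2, a P450 that makes eicosanoids, with 66.7 in the pooled list, 31.3 in replicate 1 and 36.8 in replicate 2. Its neighbour in rank among P450 genes, cyp-33E1, had 64.2, and cyp-35A2, of a subfamily induced by foreign compounds, had 56.2 with 33.0 and 24.0 in the replicates. Of the 10 cyp-35 genes none was called and 7 had a pooled candidate, and of the 5 cyp-14 genes none and 5. Beside 14.7% called over all protein-coding genes, no call among so few genes is not a result about either subfamily.

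Among phase II genes the nearest below the threshold were ugt-58 with 62.9, ugt-53 with 59.6 and ugt-26 with 57.2. For gsto-1, the omega-class transferase, the pooled signal was 60.8, with 22.4 in replicate 1 and 41.4 in replicate 2, and the other 2 gsto genes had no candidate in any list. Next came gst-43 with 59.4 and gst-13 with 58.4. The widely used stress reporter gene gst-4, a target of SKN-1, had 42.4, with 16.3 and 17.6 in the replicates, from a summit it shares with the divergent gst-2. For gst-24 the value was 39.4, with 20.9 and 26.9. These genes had peaks in both replicates yet were not called.

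The hormone-making P450 gene daf-9, whose product completes the dafachronic acids that bind DAF-12, had a weak candidate in the pooled list (27.2, rank 13526) and in replicate 1 (19.5), and none in replicate 2. The gene ugt-22 was similar in height with 28.9, but had candidates in both replicates (17.3 and 13.0). A candidate for cyp-37A1 was present in replicate 2 alone, at 11.9. No list held a candidate for cyp-29A3, cyp-31A2, cyp-44A1, which encodes a mitochondrial P450, or gst-10. In all 40 members (20.9%) were without a candidate in every list: 17 P450 genes, 7 glucuronosyltransferase genes and 16 glutathione transferase genes. Another 19 had one in a replicate but not in the pooled list, which together with the 26 calls and the 106 weaker candidates accounts for all 191. The share with none in every list was not counted over all protein-coding genes. No pooled candidate was found at 30.9% of members, against 54.6% of all protein-coding genes. Neither replicate had a candidate at 23% of members, against 46.1%. Absence was thus less common among members.

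Some absences fall where short reads are hard to place. The promoter window of gst-10 consisted of 14% unique 36-base words, that of gst-39 of 21.4% and that of cyp-25A6 of 34%, and none of these had a pooled candidate. Windows under 80% unique were found at 10 of the 59 members with no pooled candidate (16.9%), 9 of the 106 with a weaker candidate (8.49%) and 1 of the 26 called, ugt-64. Over all protein-coding genes the share was 8.22%, and 11.9% among those with no pooled candidate. The read length is not given in the sources used here, and the part of uniqueness in the missing candidates was not tested.

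The replicates' candidates did not fully overlap. Candidates in replicate 2 alone were found at 15 P450 genes and in replicate 1 alone at 5. For glucuronosyltransferase genes these numbers were 11 and 7, and for glutathione transferase genes 4 and 3. The cyp-14A row on the X chromosome was an example, with candidates at all 4 genes in replicate 2 and at 1, cyp-14A4, in replicate 1. Over all protein-coding genes replicate 1 had slightly more of its own, 10.9% against 9.47%.

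Summits at called members sat close to the 5′ end. Their median offset from the 5′ end, with negative values upstream, was -118.5 bp over 24 peaks, against -193.5 bp over the 2410 coding peaks. Within 250 bp lay 20 of the 24 (83.3%, against 59.6%), and within 100 bp 9 of them (37.5%, against 23.4%). Of the 24 summits 21 were intergenic. Counted by gene with its strongest pooled summit, the 26 called members had a median of -126 bp and 76.9% within 250 bp. By the same count the 106 members with a candidate but no call had -120.5 bp and 65.1%. In 18 of the 26 called members the summit lay in no other gene's window.

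**Figure D4:**
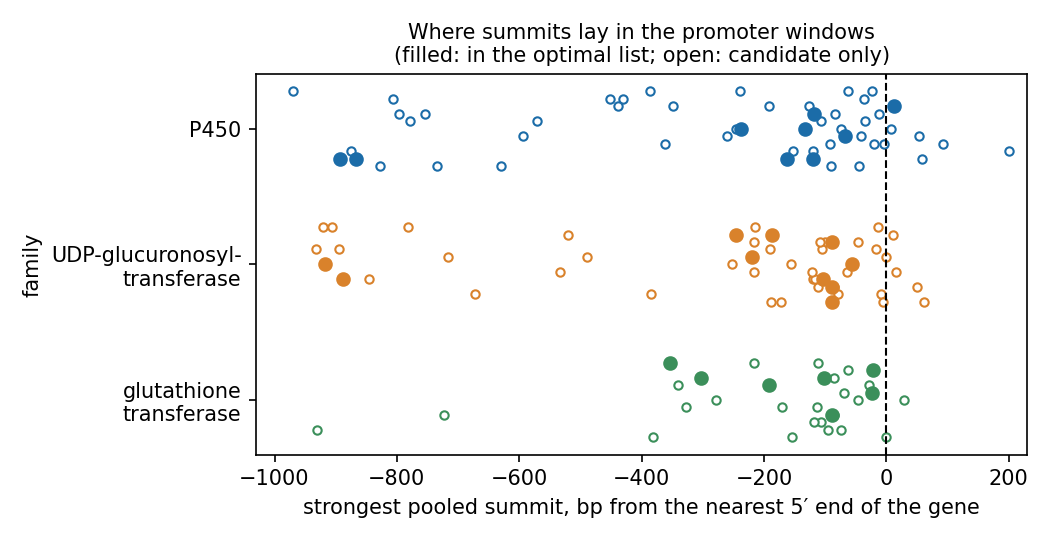
Position of the strongest pooled summit in bp from the nearest 5′ end of the gene (horizontal axis, negative upstream, dashed line at the 5′ end) for members of each family (rows, spread vertically for legibility), filled where called and open where a candidate only. Most points of each family lie within 250 bp of the 5′ end, and a scatter of P450 and glucuronosyltransferase summits lies in the far upstream part of the window.

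Clustered and lone genes were called at like rates. A member was counted as clustered when the body of another gene of its family lay within 10 kb, which held for 106 members in 27 clusters and left 85 alone. Of the clustered genes 13 were called (12.3%, from 11 peaks) and of the lone genes 13 (15.3%), beside 14.7% of all protein-coding genes. Within families the order was not uniform. For P450 genes the calls were 6 of 44 clustered (13.6%) and 3 of 31 lone (9.68%). For glucuronosyltransferase genes they were 4 of 37 (10.8%) and 6 of 30 (20%), and for glutathione transferase genes 3 of 25 (12%) and 4 of 24 (16.7%). Candidates were a little more common in clusters, with 71.7% of clustered and 65.9% of lone members in the pooled list. Neighbours can share a window and a peak, and these differences were not tested.

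No cluster had all of its genes called. At least 1 called gene was present in 8 of the 27 clusters. With 12.3% of clustered genes called, beside 14.7% of all protein-coding genes, this scatter is not a result about clusters. In the largest, 10 P450 genes over 36.7 kb of chromosome V from cyp-35A5 to cyp-34A10, the calls were cyp-34A8 and cyp-34A9. The other pooled signals there were 42 at cyp-35A5, 29.0 at cyp-34A7, 24.9 at cyp-35B3, 21 at cyp-34A6 and 17.5 at cyp-34A5, with no pooled candidate at cyp-35B1, cyp-35B2 and cyp-34A10. The 8 genes cyp-13A1 to cyp-13A8 on chromosome II had candidates at 7, with cyp-13A2 and cyp-13A5 called and cyp-13A3 bare.

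The 2 largest glutathione transferase clusters, of 9 genes each on chromosome II, had a single high peak each. The gst-20 summit was in no other gene's window, whereas the gst-27 summit also stood 57 bp upstream of the snoRNA gene Y53F4B.48. In the first cluster gst-20 stood at 195.5 and the next, gst-19, at 58.1, followed by gst-24, gst-12 (35.3), gst-14 (34.5) and gst-15 (25.2). There gst-16, gst-17 and gst-18 had no candidate. In the second gst-27 stood at 361.6 and the next, gst-28, at 52.3, with gst-32 at 35.9, gst-35 at 17.5 and gst-29 at 15.9. There gst-26, gst-31, gst-34 and gst-39 had no pooled candidate.

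The largest glucuronosyltransferase cluster, 8 genes over 24.2 kb of chromosome V, had 3 calls and 7 genes with a pooled candidate. Beside ugt-9, ugt-11 and ugt-13 it held ugt-12 at 50.5, ugt-67 at 34.2, ugt-8 at 30.4 and ugt-14 at 29.3, and ugt-10 had a candidate in replicate 2 alone (17.2). A cluster of 6, ugt-36 to ugt-41 on chromosome V, had 4 genes with a pooled candidate, up to 54.0 at ugt-40, and no call. In clusters of 3 or more, 3 of 28 genes at an edge were called (10.7%) and 9 of 52 inside (17.3%). Both shares lie near the 14.7% of all protein-coding genes, and the difference was not tested.

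**Figure D5:**
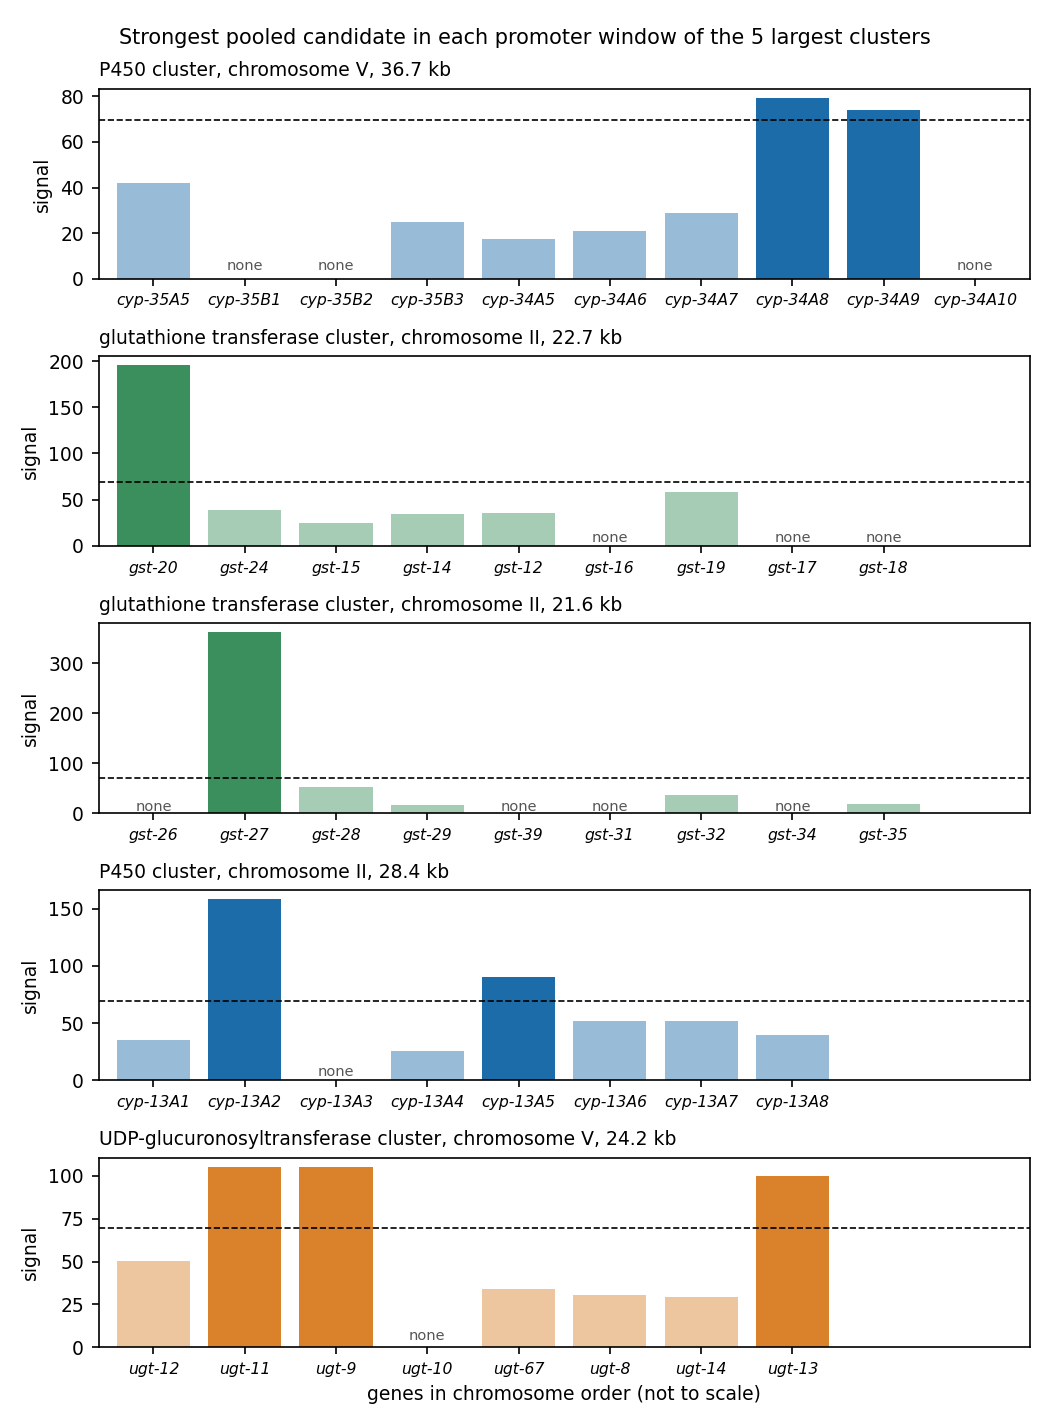
Signal of the strongest pooled candidate (vertical axis, the authors' value, from 0) in the window of each gene of the 5 largest clusters, in chromosome order, dark where called and pale where not, with a dashed line at the lowest signal of the final list, 69.4. Each glutathione transferase cluster has a single bar above the line, each P450 cluster 2, and the glucuronosyltransferase cluster 3, of which 2 are the same peak.

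By chromosome the members were uneven. Chromosome V held 92 of the 191 (48.2%) and 13 of the calls, 14.1% of its members against 10.7% of its coding genes. Chromosome II had 7 calls among 39 members (17.9%, against 13.4%), 5 of them glutathione transferase genes and the others cyp-13A2 and cyp-13A5. Chromosome I held 8 members and no call, where 18.5% of coding genes were called. On chromosome III 1 of 13 members was called (7.69%, against 20.4%) and on chromosome IV 2 of 24 (8.33%, against 14.1%). On the X chromosome 3 of 15 members were called (20%, against 14.5% of its coding genes) and 14 had a pooled candidate (93.3%, against 47.6%).

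The searched words were counted in the promoters. The GATA site TGATAA occurred in 50.3% of the 191 member promoters of 300 bases and in 30.2% of all coding promoters, with 68.7% in glucuronosyltransferase genes, 44% in P450 genes and 34.7% in glutathione transferase genes. The SKN-1 core GTCAT occurred in 48.7% against 39.5%, with 65.3% in glutathione transferase genes, 49.3% in glucuronosyltransferase genes and 37.3% in P450 genes. GATA factors direct intestinal genes in this animal, and SKN-1 is an activator of phase II genes. The word ACCACA, chosen after the summit sequences had been read, was at 19.9% against 10.4%. GAGAGA was at 17.3% against 21.8%, GAGACGCAG at 3.14% against 2.93%, CACGTG at 5.76% against 5.82% and AGGTCA at 8.9% against 8.27%.

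At the 24 called summits the counts were small. GTCAT was found at 9 (37.5%, against 14.7% of the 2410 coding summits), among them gst-5, ugt-20, ugt-61 and ugt-64 as printed above. TGATAA was at 5 (20.8%, against 9.79%), all in cyp-37B1 and ugt genes, and GAGAGA at 4 (16.7%, against 20.3%). AGGTCA was at 3 (12.5%, against 3.57%), namely gst-20, gst-7 and cyp-43A1. At gst-20 the word stands at the outer edge of the window, and at cyp-43A1 the summit lies inside a lysine tRNA gene. GAGACGCAG was at ugt-61 and ugt-64 (8.33%, against 7.84%) and CACGTG at gst-20 and gst-42 (8.33%, against 6.89%). A match describes letters in a window and says nothing about the factor.

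The word ACCACA was added after the summit sequences had been read, so its share at the called summits is not independent of that choice. It was at 5 of the 24 summits (20.8%, against 4.9%): the common peak of cyp-33C6 and cyp-33C7, cyp-34A8, cyp-34A9, ugt-61 and ugt-62. In cyp-34A9 and ugt-61 it occurs at 2 places each. Among 141 member summits below the threshold it was at 9.93% against 3.99% of such coding summits. Of those 141 weaker summits 28.4% held TGATAA, against 17.1%, and 14.2% held GTCAT, against 15.2%, so the higher share of GTCAT at called summits was not seen there. Member summits had less G and C than coding summits, a median of 39.6% against 45.5%, and member promoters 32.7% against 34.3%. These differences in base composition stand beside every word count, and their part in them was not tested.

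Genes that work with the 3 families were looked at by list. The 92 genes held 21 calls (22.8%) and 66 with a pooled candidate (71.7%), beside 14.7% and 45.4% of all protein-coding genes, 18.4% and 50.9% of those with a letters-and-number symbol, and 13.6% and 69.1% of the families' own members. The differences were not tested, and the lists are small and were chosen with earlier results of these data known. Regulators of detoxification genes had 9 of 20 (45%): zip-2, a bZIP factor of pathogen response (262.9), atfs-1 of the mitochondrial stress response (187.0), hlh-30 (182.2), nhr-49 (175.5), wdr-23, whose product restrains SKN-1 (166.6), skn-1 itself (148.0), nhr-48 (107.9), aha-1, which encodes the partner of the aryl hydrocarbon receptor (107.5), and elt-2, the intestinal GATA factor (83.4). In replicates 1 and 2 skn-1 had 54.5 and 90.8, and elt-2 58.0 and 27.5. The gene nhr-90 had no candidate in any list.

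Of 19 other phase I genes 6 were called (31.6%), with alh-1, an aldehyde dehydrogenase gene, at 330.4 (202.8 and 129.4 in the replicates), fmo-5, a flavin monooxygenase gene, at 158.6, alh-9 at 156.5, alh-4 at 141.0, alh-8 at 115.8 and alh-5 at 106.6. The electron donors of P450 enzymes were not called: emb-8, the P450 reductase gene, had 47.2 in the pooled list, cytb-5.1 60.5 and cytb-5.2 17.2. Glutathione supply and use had 2 of 17 (11.8%), gss-1 for glutathione synthetase (91.5) and glrx-10 (82.5). UDP-sugar supply and sulfotransfer had 1 of 3, sqv-4 (76.0), whose product makes UDP-glucuronic acid. Export pumps had 2 of 22 (9.09%), mrp-5 (142.0) and mrp-2 (96.5). Dafachronic acid synthesis and response had 1 of 9 (11.1%), din-1 (247.2), which encodes a corepressor of DAF-12. The shares for glutathione, pumps and dafachronic acid lie near or below that of all protein-coding genes.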

How the data were processed

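Peak lists on build ce11 were used: a final (optimal) list, a list of candidates on the pooled replicates and a list of candidates for each of 2 replicates. Per the file listings deposited with them, candidates and background were derived from alignments and a control, and the final list by thresholding the irreproducible discovery rate. Which aligner and peak caller the authors ran is not given in the sources used here. Each peak's signal is the authors' deposited value, of unstated scale, and was compared only within a list. The q-value of each peak is deposited by the authors as −log10 and is 3.99 throughout the final list. Without counts of reads in these lists, the depth per replicate is unknown and no counting error can be given.

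Coordinates are 1-based, chromosome lengths equal those of WBcel235, and genes come from Ensembl release 115 with DNA from RefSeq. A summit can count for several genes. No test was made, since there is 1 group of 2 samples and genes are not replicates. The members and lists were chosen with earlier results of these data known, and the 20 regulators and the other lists of partner genes are by symbol. Named are all called members, a fixed set of well-studied genes, the 3 strongest uncalled members of each family, members of the largest cluster of each family and the called partner genes, and beyond these some genes were chosen after their values were seen (other cluster members, subfamilies and genes with few unique words). Unique words are 36-base runs of a window found once in the genome on both strands. Alternatives were the stronger of 2 equal parts of the final list, each replicate alone, windows from 500 or 2000 bp upstream, other overlap and assignment rules, other cluster distances and 50-base words. Both replicates together, the letters-and-number background, the −log10 q-value of 2 and the word ACCACA were added after seeing the data. The counting was tested on simulated data. Python 3.11.15, numpy 2.4.6, Biopython 1.88 and matplotlib 3.10.9 were used. Lists on build ce10 were not used here.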

Additional observations from a re-analysis of the deposited data

How the results depend on the processing

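With the stronger of 2 equal parts of the final list the calls fell to 6 members, with 1 P450 gene, 1 glucuronosyltransferase gene and 4 glutathione transferase genes, 4 clustered and 2 lone, and to 12 of the partner genes, by construction since fewer peaks were used. Without summits in the window of a gene outside the members, 4 glutathione transferase genes were called. With the strongest peaks of both replicates, chosen after seeing the data, 5 P450 genes were called. The other counts of calls stayed within 1.5 times: leaving out a replicate gave 28 (without replicate 1) or 25 (without replicate 2) members, and windows from 500 or 2000 bp upstream gave 22 (11.5%, against 11.8% of coding genes) or 31 (16.2%, against 18.7%). Any overlap with the window gave 26 (13.6%, against 15.6% of coding genes). The nearest coding 5′ end gave 24 (12.6%, against 11.2%), so under that rule the members' share lay above that of coding genes. Pooled candidates were at 114 (59.7%, against 36.8%) or 146 members (76.4%, against 55%) with the narrower and wider windows. Clustered calls were 13 with clusters within 5 or 20 kb and 14 with the 3 families linked as 1. With 50-base words 13 members in place of 20 had under 80% unique words. No paired analysis was possible because there is 1 group of samples. Depth is unknown, so whether a member without a candidate lacks NHR-90 or lies below detection cannot be told apart.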
